A study of Homo sapiens with 15 samples.

Results

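G-quadruplexes are folds of guanine-rich DNA in which runs of guanine stack in planes. The 50 genes described here encode the core subunits of the polycomb complexes and the enzymes that add methyl groups to histones or remove them. They were named by function, as polycomb subunits, histone methyltransferases with the adaptor WDR5, and histone demethylases, and are 50 of the 19794 protein-coding genes of the annotation. For each gene, peaks and regions within 1 kb of any of its protein-coding start sites were taken as promoter signal. All 50 symbols matched a gene, and the strongest promoter peak of each gene in each library was used for its values.

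Signal came from chromatin immunoprecipitation sequencing with BG4, an antibody that binds DNA G-quadruplexes, in K562, an established line from a patient with chronic myelogenous leukaemia. Untreated, asynchronously growing cells were used in 2 biological replicates, with technical libraries 1a and 1c for the first and 2a, 2b and 2c for the second. All libraries are of 1 line in 1 condition, so the data hold no contrast between conditions; 2 K562 input libraries and 8 bisulfite libraries of HaCaT keratinocytes (4 treated with 10 uM entinostat for 48 h and 4 controls) were not analysed here. K562 is aneuploid and the copy number of these loci was not measured.

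Polycomb repressive complex 2 places methyl groups on lysine 27 of histone H3 through EZH1 or EZH2. Polycomb repressive complex 1 binds that mark through its CBX subunits and ubiquitinates histone H2A through RING1 or RNF2. The other methyltransferases act on further lysines or on arginines of histones and mark active or silent chromatin depending on the residue, and the lysine demethylases reverse these marks. Many of these genes carry CpG islands at their promoters, and several are mutated or translocated in leukaemia.

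The promoters with the strongest and steadiest BG4 peaks are shown first by sequence, so that the guanine runs under those peaks can be seen. The motif searched was 4 runs of at least 3 G separated by loops of 1 to 7 bases of any kind, on either strand, with motifs on the same strand not overlapping. Capitals mark the motif, and each sequence is given 5′ to 3′ on the motif's own strand, from the GRCh37 genome and outside annotated UTRs. Where a region held several motifs, the one nearest the start site is shown.

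PHC2, chr1:33815487-33815619, plus strand (template strand of the gene): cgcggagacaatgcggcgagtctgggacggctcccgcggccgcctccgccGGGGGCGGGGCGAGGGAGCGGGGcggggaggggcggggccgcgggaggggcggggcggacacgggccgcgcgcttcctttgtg
CBX8, chr17:77770877-77770999, minus strand (coding strand): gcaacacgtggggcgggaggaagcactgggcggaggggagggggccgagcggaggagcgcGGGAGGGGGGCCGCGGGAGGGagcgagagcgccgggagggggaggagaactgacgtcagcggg
KDM2A, chr11:67007284-67007424, plus strand (coding strand): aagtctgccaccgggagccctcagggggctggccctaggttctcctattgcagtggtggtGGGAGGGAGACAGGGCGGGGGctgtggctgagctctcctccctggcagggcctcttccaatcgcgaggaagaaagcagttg
KDM1B, chr6:18155399-18155541, minus strand (template strand): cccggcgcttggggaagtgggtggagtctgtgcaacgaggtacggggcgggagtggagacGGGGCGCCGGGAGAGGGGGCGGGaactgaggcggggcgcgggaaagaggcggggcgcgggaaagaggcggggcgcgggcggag
KMT2C, chr7:152133730-152133858, minus strand (coding strand): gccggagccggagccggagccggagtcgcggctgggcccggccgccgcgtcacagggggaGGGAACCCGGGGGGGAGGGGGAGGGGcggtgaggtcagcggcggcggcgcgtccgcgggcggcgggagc
NSD2, chr4:1873035-1873119, plus strand (coding strand): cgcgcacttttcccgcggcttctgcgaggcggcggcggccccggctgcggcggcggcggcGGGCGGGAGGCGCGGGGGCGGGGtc

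The highest-ranked of the 50 genes, KDM4B, and EHMT1 had regions with no such motif. Their sequences are shown with every run of 3 or more G or C in capitals. The stretches printed cover 300 of the 611 bases of the KDM4B region and 164 of the 205 bases of the EHMT1 region. The KDM4B stretch held 11 runs of G and 6 of C, and the EHMT1 stretch held 5 runs of G and 3 of C, but nowhere in either region did 4 runs on 1 strand lie within loops of 7 bases.

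KDM4B, chr19:4968824-4969123, plus strand (coding strand): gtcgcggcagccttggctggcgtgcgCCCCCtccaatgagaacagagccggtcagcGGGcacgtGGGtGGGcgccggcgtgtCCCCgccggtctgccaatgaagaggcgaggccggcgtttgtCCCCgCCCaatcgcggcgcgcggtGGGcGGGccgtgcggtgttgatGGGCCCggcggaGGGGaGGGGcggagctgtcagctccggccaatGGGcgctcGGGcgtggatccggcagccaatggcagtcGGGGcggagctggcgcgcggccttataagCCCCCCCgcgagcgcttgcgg
EHMT1, chr9:140513280-140513443, plus strand (coding strand): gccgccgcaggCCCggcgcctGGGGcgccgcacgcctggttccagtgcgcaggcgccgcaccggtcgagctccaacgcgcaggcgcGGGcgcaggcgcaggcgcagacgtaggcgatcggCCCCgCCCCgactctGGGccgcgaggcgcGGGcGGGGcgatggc

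A high-confidence region lay at the promoter of 37 of the 50 genes (74%), against 45.7% of the 14803 genes with a strict CpG island and 34.9% of all protein-coding genes, the 50 included in both. The comparison with island genes is the closer one, because all 50 genes had a strict island at a start site, against 74.8% of all protein-coding genes. A strict island is a 500-bp window with a GC fraction of at least 0.55 and an observed to expected CpG ratio of at least 0.65. A region is high-confidence, in these files, where peaks of at least 3 of the 5 libraries cover the same bases. The 3 libraries of replicate 2 can meet this rule alone, and the 2 of replicate 1 cannot. Each of the 37 genes had a promoter peak in both replicates. No test was made of the share, since the genes were chosen with earlier results known, and no expression values were used here to match the genes by activity.

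A promoter peak was found in all 5 libraries for 28 of the 50 genes (56%), against 30.5% of island genes and 23.1% of all genes. No library had a peak at 6 of the 50 (12%), against 38.3% of island genes and 52.3% of all genes. Between these, 7 genes had a peak in 4 libraries, 2 in 3, 4 in 2 and 3 in 1. The share of genes with a peak in every library or in none was thus 68% of the 50 genes, against 68.8% of island genes and 75.4% of all genes.

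**Figure D1:**
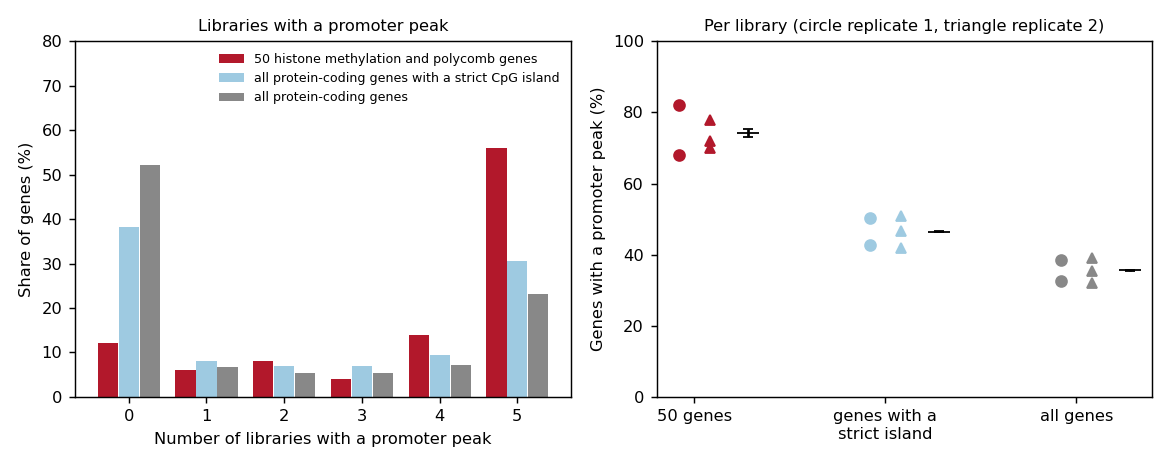
Left, share of genes (%) by the number of BG4 libraries with a promoter peak, for the 50 genes, genes with a strict CpG island and all protein-coding genes. Right, share of genes with a promoter peak in each library (circles, biological replicate 1; triangles, replicate 2) with the mean ± SD over the 2 biological replicates, 74.2% for the 50 genes, 46.5% for island genes and 35.6% for all genes.

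The share of the 50 genes with a promoter peak was 82% (41 genes) in library 1a and 68% (34) in 1c of replicate 1. In replicate 2 it was 78% (39) in 2a, 72% (36) in 2b and 70% (35) in 2c. Averaged first over the technical libraries of each biological replicate, it was 74.2% ± 1.18 (SD, n = 2), against 46.5% ± 0.0884 for island genes and 35.6% ± 0.0714 for all genes. The lowest library of the 50 genes was above the highest library of the island genes, which was 50.9% in 2c. The technical libraries of 1 replicate differed by more than the replicate means did, so the SD over 2 replicates understates the spread between libraries.

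Peak strength was described by the fold enrichment that the authors' peak caller gave at the summit, and by its percentile, the share of peaks in the same list with an equal or lower fold. The median percentile of the 50 genes' promoter peaks was 67.2 ± 4.64 (SD over 2 biological replicates), against 62.7 ± 4.48 for island genes and 62.1 ± 4.11 for all genes. Within replicate 1 the median was 70.5 for the 50 genes and 65.9 for island genes, and within replicate 2 it was 63.9 for the 50 genes and 59.5 for island genes. By library, the median of the 50 genes minus that of island genes was 2.97 and 6.32 in replicate 1 (1a and 1c), and 4.76, −2.47 and 10.95 in libraries 2a, 2b and 2c of replicate 2. The median was therefore higher at the 50 genes in both replicates and in 4 of the 5 libraries, and lower in 2b, and no test of the difference was made.

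The number of annotated start sites differed as well, and each start site adds sequence in which a region can fall. The 50 genes had a median of 5.5 start sites (1 to 19), against 3 for island genes. Within classes of equal number the shares were 15 of 17 (88.2%) against 45.1% of island genes at 2 to 4 start sites, 12 of 19 (63.2%) against 51.4% at 5 to 9, and 9 of 12 (75%) against 55.4% at 10 or more. Of the 2 genes with 1 start site, KDM3B had a region and RING1 had none, against 34.1% of island genes with 1 site. The share was higher in the 50 genes in every class, and by the widest margin at 2 to 4 start sites.

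**Figure D2:**
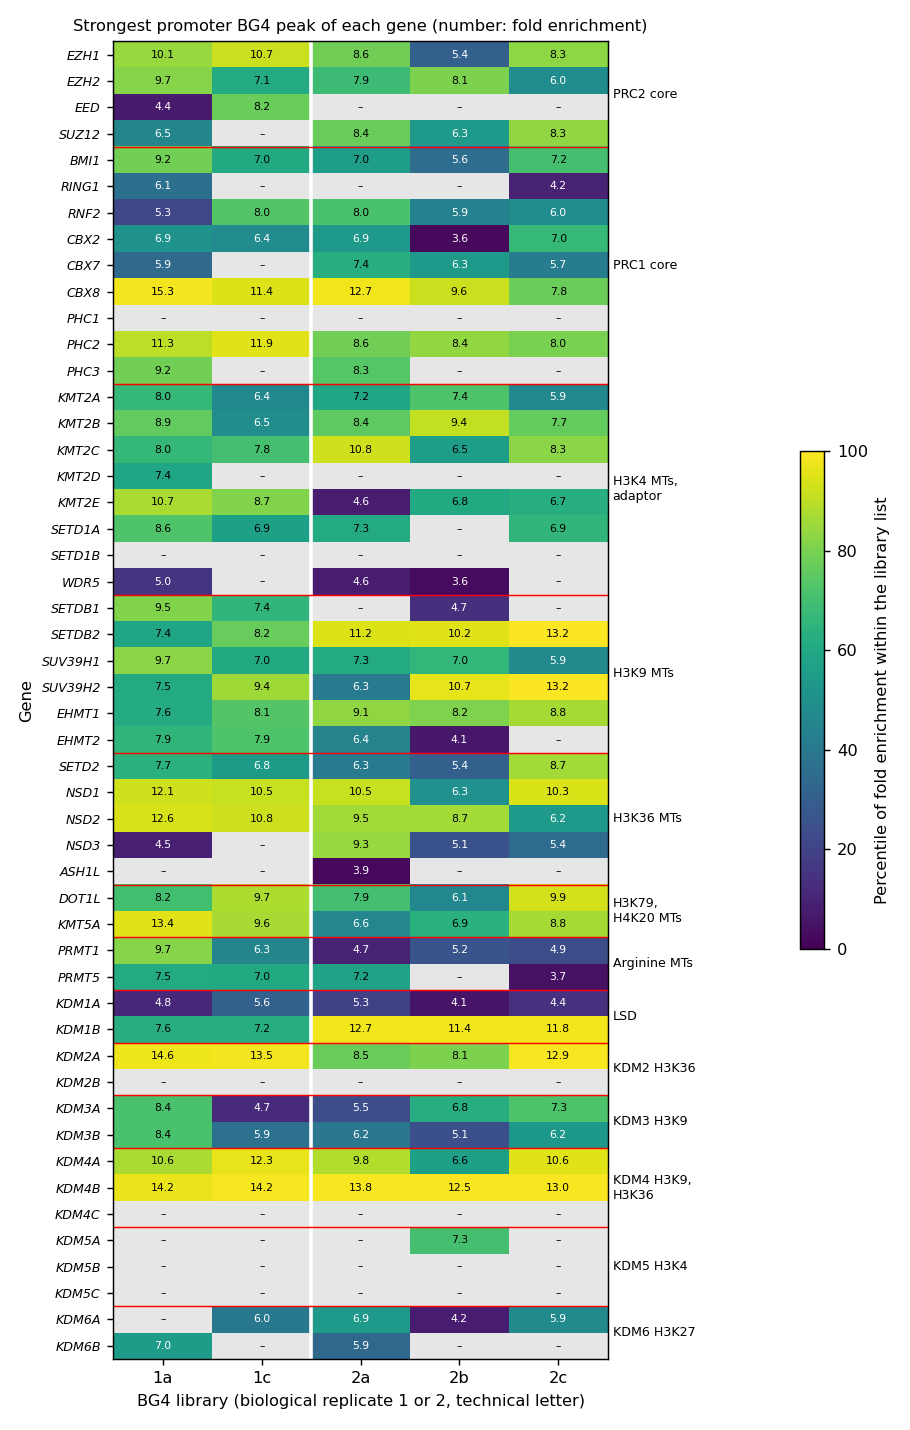
Strongest promoter BG4 peak of each of the 50 genes (rows, by role) in each of the 5 libraries (columns); the number is the fold enrichment, the colour its percentile within that library's list, and a dash marks no promoter peak (MTs, methyltransferases). KDM4B was at 12.5-fold or more in all 5 libraries, and the 3 KDM5 genes had 1 peak in all, for KDM5A in 2b.

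By class, 20 of the 23 methyltransferases and adaptor outside polycomb (87.0%) had a promoter region, 9 of the 13 polycomb genes (69.2%) and 8 of the 14 demethylases (57.1%). The 10 genes ranked highest by their lowest percentile over the 5 libraries came from all 3 classes: KDM4B (97.1), PHC2 (78.4), CBX8 (77.7), KDM2A (77.7), KDM1B (62.4), EHMT1 (61.4), SETDB2 (59.3), KDM4A (56.8), KMT2C (56.0) and NSD2 (53.6). The classes are small, and no test of a difference between them was made. Roles within the classes ranged from 6 of 6 H3K9 methyltransferases to none of 3 KDM5 demethylases.

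Of the core of polycomb repressive complex 2, EZH1, EZH2 and SUZ12 had a promoter region and EED had none. Fold enrichments are given below in the order 1a and 1c for replicate 1, and 2a, 2b and 2c for replicate 2. EZH1, the less active of the catalytic subunits, had fold enrichments of 10.1 and 10.7 in replicate 1 and 8.63, 5.39 and 8.30 in replicate 2. EZH2, the catalytic subunit of dividing cells, had 9.71 and 7.12 in replicate 1 and 7.86, 8.08 and 5.97 in replicate 2. Both enzymes were enriched in every library, with EZH1 lowest in 2b and EZH2 lowest in 2c. SUZ12, the scaffold on which the complex assembles, had 6.49 in 1a, 8.42 in 2a, 6.33 in 2b and 8.32 in 2c, with no peak in 1c. EED, which binds the methylated lysine and stimulates the enzyme, had a peak of 4.43-fold in 1a and 8.24-fold in 1c and none in the libraries of replicate 2. EED was therefore seen in 1 biological replicate only. A region could not be called under the rule of 3 libraries, since replicate 1 has only 2.

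Of polycomb repressive complex 1, BMI1, RNF2, CBX2, CBX7, CBX8 and PHC2 had a promoter region, and RING1, PHC1 and PHC3 had none. CBX8 and PHC2 were among the 10 highest-ranked genes. CBX8, a chromobox reader of methylated lysine 27, had 15.3 and 11.4 in replicate 1 and 12.7, 9.61 and 7.80 in replicate 2, with percentiles of 77.7 to 98.3. PHC2, a polyhomeotic subunit through which complexes cluster, had 11.3 and 11.9 in replicate 1 and 8.65, 8.43 and 7.998 in replicate 2, with percentiles of 78.4 to 95.7. Both genes were ranked by their lowest percentile, so a high place in every list follows from the ranking.

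PHC2 had 2 separate promoter regions in all 5 libraries, at chr1:33815437-33815768 and chr1:33896569-33896890, each over a start site of the gene. The first gave the values above in all libraries but 2c, where it stood at percentile 74.0. The second stood at percentile 79.9 in 2c and at 41.3 to 64.3 in the other libraries. The first also lies within 1 kb of the start of PHC2-AS1, a noncoding gene, and peaks do not tell which transcript a fold belongs to. Its paralogues differed from it. PHC1, a polyhomeotic subunit of the same kind, had no peak in any library. PHC3 had a peak of 9.19-fold in 1a and 8.25-fold in 2a only, at percentiles of 78.6 and 73.6 of their lists.

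The ubiquitin ligases also differed. RNF2, the main catalytic subunit, had 5.34 and 8.04 in replicate 1 and 7.96, 5.92 and 5.99 in replicate 2. RING1, its paralogue, had a peak of 6.12-fold in 1a and 4.17-fold in 2c and none in the other libraries. RNF2 was thus enriched in every library and RING1 in 1 library of each replicate. BMI1, the partner that activates the ligase, had 9.19 and 7.05 in replicate 1 and 7.04, 5.64 and 7.17 in replicate 2. CBX2, another chromobox reader, had 6.90 and 6.44 in replicate 1 and 6.91, 3.59 and 6.95 in replicate 2, its 2b value standing at percentile 2.37 of that list. CBX7, the chromobox subunit known for repressing the INK4A locus, had 5.95 in 1a, 7.40 in 2a, 6.33 in 2b and 5.67 in 2c, with no peak in 1c. CBX2, CBX7 and BMI1 fell in the middle of the lists in most libraries.

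Of the H3K4 methyltransferases, KMT2A, KMT2B, KMT2C, KMT2E and SETD1A had a promoter region, as did WDR5, and KMT2D and SETD1B had none. KMT2A, the mixed lineage leukaemia gene, had 7.98 and 6.41 in replicate 1 and 7.25, 7.43 and 5.87 in replicate 2. KMT2B, its close paralogue, had 8.95 and 6.50 in replicate 1 and 8.36, 9.36 and 7.66 in replicate 2. Both were present in all 5 libraries, and the lowest percentile of KMT2B was 49.1, in 1c. KMT2C, which methylates enhancers, had 7.97 and 7.75 in replicate 1 and 10.8, 6.55 and 8.26 in replicate 2 and ranked among the 10 highest. KMT2D, its paralogue at enhancers, had 1 peak, of 7.37-fold in 1a. The pair therefore differed in the number of libraries with a peak, 5 for KMT2C and 1 for KMT2D.

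KMT2C carried 3 regions within 1 kb of start sites, 1 of them 21 bp wide, and the start of the pseudogene FABP5P3 lies within 1 kb of each. KMT2C has near-identical copies elsewhere in the genome, and how the authors placed reads that match several places is not given in the sources used here. The region at chr7:152133516-152133970 overlapped a peak in all 5 libraries.

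KMT2E, a family member for which methyltransferase activity is doubtful, had 10.7 and 8.71 in replicate 1 and 4.64, 6.81 and 6.71 in replicate 2. Both libraries of replicate 1 were above all 3 of replicate 2, but the values join 2 regions. Those of 1a, 1c and 2b are from a region 975 bp from a start site, where replicate 1 was higher too. Those of 2a and 2c are from a region over the start site. There the percentiles were 50.4 and 62.9 in replicate 1, and 7.79 in 2a and 63.0 in 2c, with no peak in 2b. SETD1A, the catalytic subunit of a broad H3K4 methyltransferase complex, had 8.63 in 1a, 6.86 in 1c, 7.30 in 2a and 6.87 in 2c, with no peak in 2b. SETD1B, its paralogue, had no peak in any library. WDR5, the adaptor shared by these complexes, had 5.01 in 1a, 4.59 in 2a and 3.64 in 2b, with no peak in 1c or 2c. The 3 WDR5 values were near the bottom of their lists, at percentiles of 15.3, 7.56 and 3.00, and the WDR5 region was lost when 1a, 2a or 2b was left out.

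All 6 H3K9 methyltransferases had a promoter region. SETDB2, a less studied relative of SETDB1, had 7.43 and 8.24 in replicate 1 and 11.2, 10.2 and 13.2 in replicate 2. EHMT1, which forms a dimer with EHMT2 and places the dimethyl mark, had 7.55 and 8.05 in replicate 1 and 9.13, 8.19 and 8.78 in replicate 2. In both genes every replicate 2 library had a higher percentile than both replicate 1 libraries. EHMT2 had 7.93 in 1a, 7.93 in 1c, 6.43 in 2a and 4.12 in 2b, with no peak in 2c. EHMT2 was lower than EHMT1 in 2a and 2b in fold and close to it in 1a and 1c.

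SUV39H1 and SUV39H2 are the paralogous enzymes of constitutive heterochromatin. SUV39H1 had 9.73 and 7.05 in replicate 1 and 7.30, 7.03 and 5.89 in replicate 2. SUV39H2 had 7.53 and 9.45 in replicate 1 and 6.30, 10.7 and 13.2 in replicate 2. SUV39H2 reached percentile 99.3 in 2c, where SUV39H1 had its lowest. SETDB1, which silences repeats with the KRAB zinc finger proteins, had 9.53 in 1a, 7.43 in 1c and 4.68 in 2b, with no peak in 2a or 2c. The SETDB1 region rested on 3 libraries and was lost when any of them was left out.

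Of the H3K36 methyltransferases, SETD2, NSD1, NSD2 and NSD3 had a promoter region and ASH1L had none. NSD2, which is translocated in multiple myeloma, had 12.6 and 10.8 in replicate 1 and 9.45, 8.72 and 6.22 in replicate 2. NSD1, mutated in an overgrowth syndrome, had 12.1 and 10.5 in replicate 1 and 10.5, 6.25 and 10.3 in replicate 2. Each had 1 low library, at percentile 53.6 in 2c for NSD2 and 50.4 in 2b for NSD1, against 85.9 to 94.0 and 91.6 to 94.3 in the other libraries. SETD2, the enzyme that travels with RNA polymerase II, had 7.71 and 6.78 in replicate 1 and 6.30, 5.39 and 8.74 in replicate 2. NSD3, the relative of NSD1 and NSD2, had 4.52 in 1a, 9.31 in 2a, 5.14 in 2b and 5.39 in 2c, with no peak in 1c. ASH1L, a trithorax group enzyme, had 1 peak, of 3.93-fold in 2a, at percentile 1.96 of that list.

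DOT1L, the H3K79 methyltransferase recruited by fusions of KMT2A, had 8.22 and 9.73 in replicate 1 and 7.88, 6.06 and 9.94 in replicate 2. KMT5A, which monomethylates H4K20 in the cell cycle, had 13.4 and 9.61 in replicate 1 and 6.55, 6.88 and 8.76 in replicate 2. Of the arginine methyltransferases, PRMT1, the main source of asymmetric dimethylarginine, had 9.70 and 6.32 in replicate 1 and 4.73, 5.20 and 4.90 in replicate 2. PRMT5, which makes the symmetric form, had 7.53 in 1a, 7.05 in 1c, 7.17 in 2a and 3.69 in 2c, with no peak in 2b. All 4 had a promoter region, and PRMT5 rested on 4 libraries. PRMT1 and KMT5A were higher in percentile in both replicate 1 libraries than in any of replicate 2.

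Of the demethylases, KDM1A and KDM1B act through a flavin cofactor and the other families through a Jumonji domain. KDM1B had 7.58 and 7.21 in replicate 1 and 12.7, 11.4 and 11.8 in replicate 2, with percentiles of 62.4 and 63.2 in replicate 1 and 97.7 to 97.8 in replicate 2. KDM1A had 4.84 and 5.64 in replicate 1 and 5.33, 4.08 and 4.43 in replicate 2. KDM1A had a peak in every library but at percentiles of 5.82 to 31.0 only, below KDM1B in each.

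KDM2A and KDM2B carry a domain that binds unmethylated CpG. KDM2A had 14.6 and 13.5 in replicate 1 and 8.52, 8.08 and 12.9 in replicate 2, with percentiles of 77.7 to 99.1. It had 2 promoter regions in all 5 libraries, at chr11:66886337-66886768 and chr11:67007232-67007622, each over a start site. The value in 1a is from the first region, which stood at percentiles of 33.2 to 62.3 in the other libraries. The values in the other libraries are from the second region, which stood at 79.98 in 1a. KDM2B, its paralogue and a subunit of a polycomb complex, had no promoter peak in any library. At annotated start sites KDM2A was thus called in every library and KDM2B in none.

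KDM3A had 8.41 and 4.65 in replicate 1 and 5.51, 6.82 and 7.30 in replicate 2. KDM3B had 8.41 and 5.95 in replicate 1 and 6.22, 5.09 and 6.18 in replicate 2. Both, which remove methyl groups from H3K9, were present in all 5 libraries, at percentiles of 12.1 to 72.3 for KDM3A and 24.2 to 71.1 for KDM3B.

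KDM4B had the highest lowest percentile of the 50 genes. Its fold enrichments were 14.2 and 14.2 in replicate 1 and 13.8, 12.5 and 13.0 in replicate 2, and its percentiles were 97.1 and 98.7 in replicate 1 and 99.0, 99.0 and 99.2 in replicate 2. Its region, chr19:4968564-4969174, was 611 bp wide, the widest of the 42 promoter regions of these genes, with a GC content of 72.7%. KDM4A, a paralogue that like KDM4B acts on H3K9 and H3K36, had 10.6 and 12.3 in replicate 1 and 9.85, 6.58 and 10.6 in replicate 2. KDM4A was at percentiles of 87.2 to 96.5 in 4 libraries and at 56.8 in 2b. KDM4C, of the same family, had no peak in any library.

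The KDM5 genes, whose products remove H3K4 methylation, had no promoter region. KDM5A had 1 peak, of 7.30-fold in 2b, and KDM5B and KDM5C had none. Of the H3K27 demethylases, KDM6A, also known as UTX, had 5.96 in 1c, 6.91, 4.19 and 5.89 in the 3 libraries of replicate 2, and no peak in 1a. KDM6B, also known as JMJD3, had a peak of 7.03-fold in 1a and 5.92-fold in 2a only. With a window of 2 kb a high-confidence region of KDM6B also counted, since 1 lay 1322 bp from a start site.

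The genes with a peak in all 5 libraries allowed a check of whether percentiles were ordered by biological replicate. Every replicate 2 library was above both replicate 1 libraries for SETDB2, EHMT1, KDM1B and KDM4B, which is 4 of 28 (14.3%), against 12.1% of the 4568 genes with peaks in all 5. Every replicate 1 library was above all of replicate 2 for EZH1, PHC2, KMT2E, NSD2, KMT5A and PRMT1, which is 6 of 28 (21.4%), against 21.8%. Both shares were close to those of all such genes. In KMT2E the order held in the region 975 bp from a start site and not in the region over it. The order is of percentiles within each list. In KDM4B the fold enrichments ran the other way, at 14.2 and 14.2 in replicate 1 and 13.8, 12.5 and 13.0 in replicate 2. The peak names in the lists labelled 2a and 2c carry each other's letter. The labels were followed, so values given for 2a and 2c may be exchanged, which alters no count by gene.

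The 37 genes with a region held 42 promoter regions, because PHC2, KMT2E and KDM2A had 2 each and KMT2C 3. Their median width was 243.5 bp, against 215 bp for all 6848 promoter regions. Their median GC content was 75.1% (56.6 to 88.2%), against 71.1%. Of the 42, 33 (78.6%) covered a start site, against 70.1%, and 30 (71.4%) overlapped a peak in all 5 libraries by at least 1 base, against 58.8%. The other 9 lay wholly upstream of the nearest start site.

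**Figure D3:**
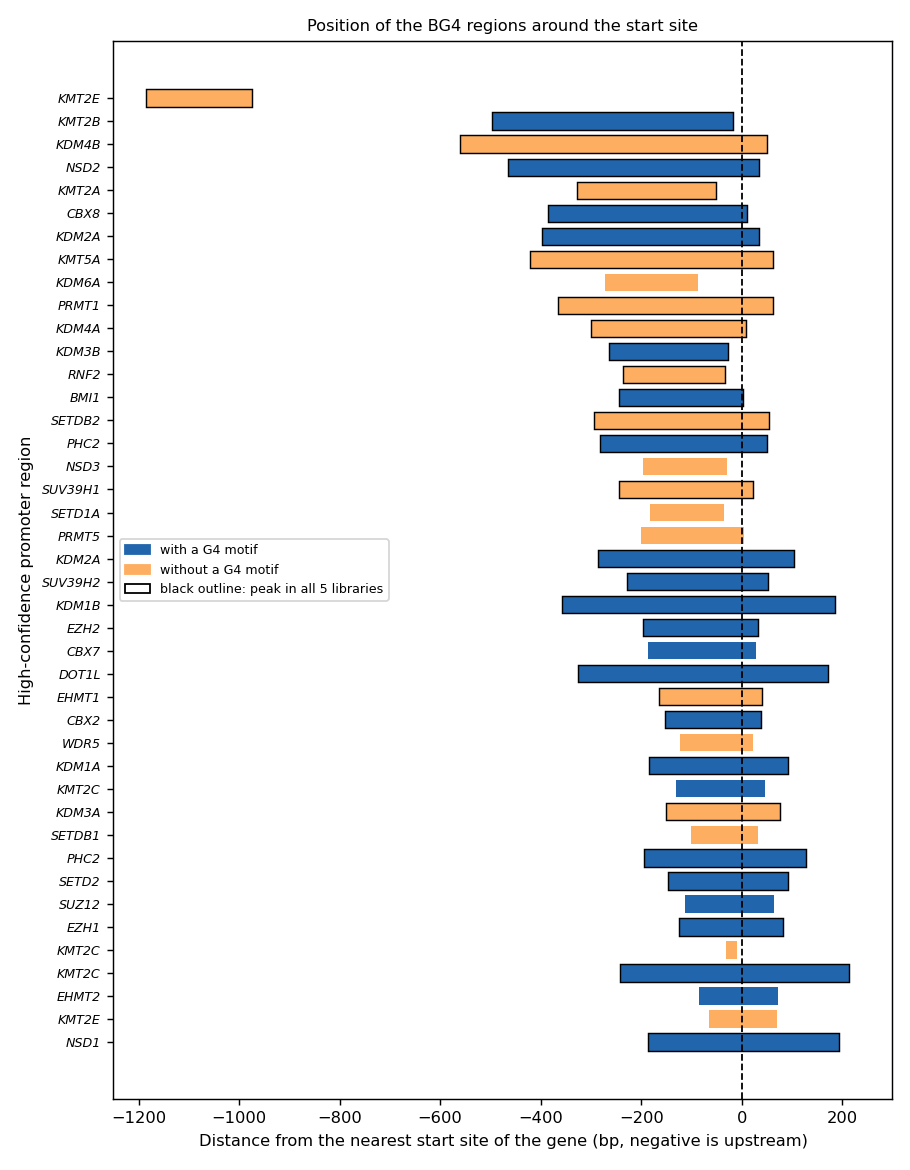
Extent of the 42 high-confidence promoter regions (bars, 1 per region) relative to the nearest start site of the gene, in bp, with negative values upstream; colour marks a G4 motif and a black outline a peak in all 5 libraries. The middle of 40 of the 42 lies upstream of the start site, and 1 KMT2E region lies 975 bp from it.

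Regions sat just upstream of transcription starts. The middle was upstream of the nearest start site in 40 of 42 (95.2%), against 82.3% of all promoter regions, at a median distance of −89 bp against −60.5 bp. The 2 exceptions, in KMT2E and NSD1, had their middle 2.5 and 4 bp downstream. Measured from the canonical start site alone, 38 of 40 gene and region pairs (95%) were upstream, against 87.5% of 7139. The middle lay within 250 bp of a start site in 39 of the 42 (92.9%), against 88.4%. Where several start sites lie close together, the nearest can be upstream or downstream of the one in use, which these files do not show.

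Summits of the peaks in the different libraries were compared within regions. A region holds only bases shared by peaks of at least 3 libraries, and peaks had median widths of 188 to 218 bp. Near summits therefore follow in part from how regions were chosen, and the spread over all promoter regions was not computed. In the 30 regions with peaks in all 5 libraries the summits were spread over a median of 88.5 bp (12 to 384 bp), and in 17 of them over 100 bp or less. The smallest spread was in KDM1B and the widest in the KMT2E region far from the start site.

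Of the 42 regions 5 lie within 1 kb of the start of another protein-coding gene on the opposite strand, which is 11.9%. Of all promoter regions, 14.6% had start sites on both strands within 1 kb, and 16.5% were shared with another gene on either strand. The pairs were SETDB2 with CAB39L, EHMT2 with C2, DOT1L with AP3D1, KDM1A with TEX46 and KDM1B with TPMT. For these the peak cannot be given to 1 gene of the pair. A further 14 regions of 11 genes lay within 1 kb of the start of an annotated noncoding gene, among them WDR5, SUV39H2 and PRMT5. The same share over all promoter regions was not computed, so this count cannot be called high or low.

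A G4 motif was present in 23 of the 42 regions (54.8%), against 37.3% of all promoter regions. The 95% Wilson interval of the share was 39.9 to 68.8%, for counting error only. The motif was on the coding strand alone in 8, on the template strand alone in 10 and on both in 5. Counting the regions with both under each strand, a coding-strand motif was present in 31.0% of the 42 regions, against 22.2% of all promoter regions, and a template-strand motif in 35.7%, against 18.9%. Regions with a motif had a median width of 281 bp and a median GC content of 75.5%, against 205 bp and 70.7% in those without. Width and GC content thus moved with the motif share, both here and against all promoter regions, and their part in it was not tested. Allowing loops of up to 12 bases gave a motif in 5 of the other 19 regions, which left 14 with none.

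Strong and steady peaks were found with and without the motif in the region itself. Of the 10 highest-ranked genes, PHC2, CBX8, KDM2A, KDM1B, KMT2C and NSD2 had one in a promoter region, and KDM4B, EHMT1, SETDB2 and KDM4A had none there. Within 250 bp of the canonical start site, EHMT1 and KDM4A did hold a motif, and KDM4B and SETDB2 did not. The template strand held all the motifs of PHC2 and KDM1B, and the coding strand all those of CBX8 and KDM2A. NSD2 had 4 motifs, 2 on each strand, in a region of 499 bp with a GC content of 84.0%. KMT2C had 4 template-strand motifs in a region covered only in the 3 libraries of replicate 2. The sequences of these motifs lie in an annotated UTR and are not shown.

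The genes without a region were compared in a window of fixed length, 501 bp centred on the canonical start site, to see what their promoters hold. The motif was in this window in 36 of the 50 genes (72%), against 47.0% of 19516 genes. It was present in 28 of the 37 genes with a region (75.7%) and in 8 of the 13 without (61.5%). Over all genes the shares were 57.2% with a region and 41.4% without. The median GC content of the window was 73.3% in the 37 genes and 65.7% in the 13, against 69.3% and 61.1% over all genes. The genes with a region were richer in GC in both sets. These window values were not computed for island genes, which are the closer comparison. The part of island sequence in the differences from all genes was not tested.

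**Figure D4:**
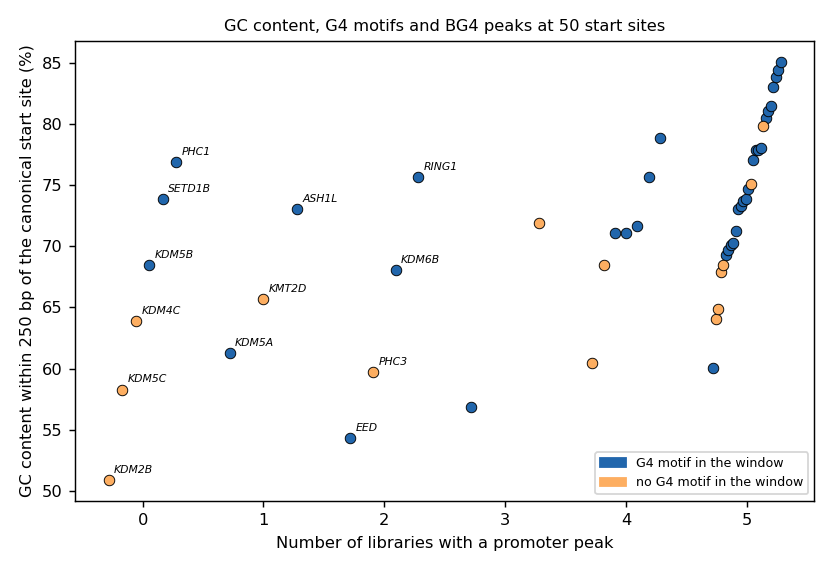
GC content (%) of the 501-bp window around the canonical start site of each of the 50 genes against the number of libraries with a promoter peak; points are spread sideways within each number in order of GC content, and colour marks a G4 motif. Genes without a peak ranged from 50.9% in KDM2B to 76.8% in PHC1, and genes with peaks in all 5 libraries reached 85.0%.

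Of the 6 genes with no peak in any library, 3 held a motif in the window. The sequences of these motifs, the nearest to the start site outside annotated UTRs, are shown because they match the motif and have no BG4 peak.

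PHC1, chr12:9067026-9067063, plus strand (coding strand): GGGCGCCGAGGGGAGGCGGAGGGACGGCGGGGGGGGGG
SETD1B, chr12:122241759-122241785, plus strand (coding strand): GGGGTGGGGGGCCGCTGGGGCCCGGGG
KDM5B, chr1:202777649-202777670, minus strand (coding strand): GGGTCGATGGGGGTGGGGTGGG

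The PHC1 window had a GC content of 76.8% and that of SETD1B 73.9%, both above the median of the genes with a region. The window of KDM5B had 68.5%. KDM2B at 50.9%, KDM4C at 63.9% and KDM5C at 58.3% had no motif. A motif in the sequence was thus found with no peak in 3 genes, and a peak in all 5 libraries without a motif in the region in others, such as KDM4B.

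Some paralogues differed in the same way. PHC1 and PHC2 both had the motif in the window, with a GC content of 76.8% and 73.3%, and of this pair PHC2 alone had peaks. PHC3 had no motif and a peak in 2 libraries. SETD1A had no motif in its window and a peak in 4 libraries, while SETD1B had a motif and no peak. KDM5B had a motif and no peak, KDM5A had a motif and a peak in 1 library, and KDM5C had neither. A motif in the window was thus seen with and without peaks in the PHC family, and without peaks in SETD1B and KDM5B. In other pairs motif and peaks went together. KDM2A, KMT2C and KDM4A had a motif and peaks in all 5 libraries. KDM2B and KDM4C had neither, and KMT2D had no motif and a peak in 1 library. KDM4B had no motif and peaks in all 5.

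Peaks also lay inside some of the genes, away from their promoters. A high-confidence region beyond 1 kb of the gene's own start sites was present in 8 of the 50 genes (16%), against 6.15% of island genes and 5.63% of all genes. The 50 genes had a median length of 60.6 kb, against 34.3 kb for island genes and 26.98 kb for all genes, and the part of gene length in these shares was not tested. The 8 genes held 13 such regions, 5 of them with a peak in all 5 libraries, and 8 with no annotated start of any gene within 1 kb. KDM2B, without a promoter peak, had 1 such region at chr12:121905064-121905452 with peaks in all 5 libraries. Its fold enrichments were 17.1 and 12.4 in replicate 1 and 9.83, 6.79 and 8.40 in replicate 2, its GC content was 83.8% and it held 3 motifs. It lay 42.3 kb downstream of the nearest protein-coding start site of KDM2B outside annotated exons, and no annotated start was within 1 kb.

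The other gene-body regions were in CBX7, KMT2E, DOT1L, KMT5A, PRMT1, KDM4B and KDM6B. KMT2E had 4, 3 of which lay within 1 kb of the start of the noncoding gene LINC01004. The DOT1L region, 4.97 kb downstream of the nearest start site, had peaks in all 5 libraries at 6.91-fold to 9.04-fold. The edge of the window set a few of these apart. The region of KMT2E just inside lay 975 bp from a start site. The nearest outside lay at 1322 bp in KDM6B, 1329 bp in KMT2E, 1496 bp in KMT5A and 1590 bp near CBX8.

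Other genes of the pathway were described in the same way, from 75 genes named by function in 5 groups. A promoter region was found for 53 of the 75 (70.7%), peaks in all 5 libraries for 40 and no peak for 13. This is close to the 74% of the 50 genes, and all 75 had a strict island too. By group, 18 of 24 accessory and variant polycomb subunits had a region, 9 of 11 subunits of H3K4 methyltransferase complexes, 10 of 17 further methyltransferases, 5 of 8 further demethylases and 11 of 15 readers of histone methylation. WDR82 and KDM4D were counted with peaks in the 3 libraries of replicate 2 only.

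Among the polycomb subunits PCGF3, a variant of the BMI1 partner, had fold enrichments of 14.9 and 11.9 in replicate 1 and 10.2, 10.9 and 9.38 in replicate 2. PHF19, which brings polycomb repressive complex 2 to CpG islands, had fold enrichments of 14.9 and 16.3 in replicate 1 and 14.5, 8.97 and 12.1 in replicate 2. The lowest percentile over the libraries was 90.5 for PCGF3, the highest such value among these subunits, and 87.9 for PHF19, which was above PCGF3 in 1c, 2a and 2c. AEBP2, an accessory subunit of the same complex, had a peak of 5.84-fold in 2b and 6.28-fold in 2c, and BCOR, the corepressor subunit of a variant complex, had none.

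Of the H3K4 complexes, MEN1, the menin tumour suppressor that binds KMT2A, had 11.3 and 11.8 in replicate 1 and 11.8, 9.37 and 8.58 in replicate 2. ASH2L, a core subunit, had 7.89 and 6.33 in replicate 1 and 10.4, 7.35 and 7.59 in replicate 2. PSIP1, which ties menin to chromatin, had no peak, and RBBP5, a core subunit, had 1 of 5.12-fold in 2a. The partners of KMT2A thus ranged from every library to none.

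Among further methyltransferases the arginine enzymes CARM1 and PRMT2 led. CARM1 had 20.8 and 16.3 in replicate 1 and 16.9, 8.01 and 8.66 in replicate 2. PRMT2 had 10.6 and 13.3 in replicate 1 and 9.35, 8.87 and 9.92 in replicate 2. KMT5B, which acts on H4K20, had 1 peak of 4.60-fold in 2c, and PRDM9, the enzyme of meiotic recombination sites, had none. Among further demethylases KDM7A, an H3K9 and H3K27 demethylase, had 12.2 and 13.4 in replicate 1 and 8.88, 6.67 and 6.99 in replicate 2. PHF8, its relative, had 6.49 and 6.50 in replicate 1 and 6.74, 7.30 and 4.39 in replicate 2. PHF2, of the same family, and RIOX1 had no peak. KDM7A was higher than PHF8 in every library but 2b.

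Of the readers, PHF13, which binds methylated H3K4, had 11.7 and 12.01 in replicate 1 and 10.6, 12.3 and 8.53 in replicate 2. ING2, a subunit of a histone deacetylase complex, had 10.3 and 10.3 in replicate 1 and 9.87, 11.4 and 7.62 in replicate 2. The lowest percentile was 84.6 for PHF13 and 76.2 for ING2. ING4 and L3MBTL3 had no peak. Genes of every group were thus found at both ends, with peaks in all 5 libraries and with none.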

How the data were processed

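BG4 peaks were called per library with MACS2 on hg19 (GRCh37), per the submitters' processing notes; the version, control library, filters and aligner are not given in the sources used here, and read depth is unknown. The 5 deposited lists held 8059 to 12495 peaks. In them the deposited fold enrichment was a ratio of summit signal over the caller's local background, the deposited −log10 p began at 5.00 to 5.05, and the deposited score was that −log10 p times 10 without decimals. These values are the authors' own and were ranked only within a list. The authors' high-confidence list had 8955 regions, all identical to the bases covered by at least 3 of the 5 lists, and 15 mitochondrial ones were left out. Every column used belonged to a mapped library, and 0 others were set aside.

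Start sites were those of all protein-coding transcripts in GENCODE release 44 lifted to GRCh37, and coordinates are 1-based. Overlap meant at least 1 base within 1 kb. Analyses used Python 3.11.15, pandas 2.3.3, numpy 2.4.6 and pysam 0.24.0, and the steps were tested on simulated data with known answers. Technical libraries were averaged within each biological replicate (n = 2), and no test was made. The 50 genes, the pathway groups and the settings were chosen with earlier results of these data known. Full values were given for the 10 genes with peaks in all 5 libraries and the highest lowest percentile, and for genes with peaks in 1 to 4 libraries; further genes with peaks in all 5 libraries were described by role. Of the other genes of the pathway, per group, the pair with the highest lowest percentile and the first pair by alphabet without a region were named.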

Additional observations from a re-analysis of the deposited data

Results flagged for a closer look

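Over the 5 libraries, 30 sets of values were checked, those of the 28 genes with peaks in every library, the number of the 50 genes with a peak and their median percentile. In 5 genes there was 1 library far from the other 4, by a gap over 0.71 of the whole range. Chance flags about 1 in 20 such groups where the 5 values are independent and normally distributed. Percentiles are bounded and the libraries are technical ones of 2 replicates, so that rate need not hold here. In all 5 genes the library apart was the lowest. EZH1 was at percentile 30.7 of fold enrichment in 2b, against 78.3 to 92.0 in the other libraries. NSD1 was at 50.4 in 2b, against 91.6 to 94.3. NSD2 was at 53.6 in 2c, against 85.9 to 94.0. KDM4A was at 56.8 in 2b, against 87.2 to 96.5. KDM4B was at 97.1 in 1a, against 98.7 to 99.2. In 3 of the 5 the low library was 2b.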

How the results depend on the processing

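The count of 50 genes with a promoter region, 37, was 35 to 38 with windows of 500 bp or 2 kb, the canonical start site alone, the region's middle, lists cut to equal length, or 1 library left out. WDR5 and SETDB1 were the genes lost when a library was left out. It was 27 with coverage in all 5 libraries and 29 with a −log10 p of at least 10, and all genes fell to 4369 and 4927, against 6902. The share of the 50 genes with a peak was 59.2% with that p threshold, 68.3% with equal lists, and 70.7 to 77.7% without 1 library. The median percentile was 58.5 and 62.2 under the first pair of settings, and 65.1 to 69.1 without 1 library. Under that pair the peaks were ranked again within the shortened lists, so percentiles can fall because weak peaks are gone. Neither the share nor the median was computed for island genes under these settings. The 2 medians therefore cannot be set against the island value given earlier. The motif share was 97.6% with runs of 2 or more G, so it depends on the motif's definition, and 66.7% with loops up to 12; all 50 genes had an island under looser limits too. Of the settings chosen after seeing the data, GENCODE basic transcripts gave 37 genes. Leaving out 2a and 2c and requiring only 2 of the other 3 libraries gave 38. The gene added was EED, whose peaks in 1a and 1c suffice under that looser rule. The replicate numbers pair no conditions here, since all libraries are of 1 condition, and no paired test was made. Depth and copy number were unknown, and an absent peak says only that none passed the caller's threshold.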
